A study of Schizosaccharomyces pombe with 17 samples.

Results

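MTREC, also called NURS, is a nuclear complex of fission yeast (Schizosaccharomyces pombe) that hands RNAs to the RNA exosome for degradation. The genes described here are the 8 that encode its parts and close partners: red1 (SPAC1006.03c), mtl1 (SPAC17H9.02), pab2 (SPBC16E9.12c), rmn1 (SPBC902.04), iss10 (SPAC7D4.14c), red5 (SPBC337.12), ars2 (SPBC725.08) and pla1 (SPBC646.04). They were picked by systematic ID out of the 7027 features in the deposited expression table. All 8 were in the table, and all 8 passed the filter on low values (a mean of at least 1 FPKM), as did 6083 features in all.

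Red1 is a zinc-finger protein that holds the complex together, and Mtl1 is its RNA helicase, related to the Mtr4 helicase of the TRAMP complex. The RNA-binding protein Mmi1 recognises mRNAs of meiosis in growing cells, and Iss10 links it to Red1, so that the exosome removes those mRNAs before they can act. Much of this decay depends on poly(A) tails that the polymerase Pla1 adds and the nuclear protein Pab2 binds. Rrp6 and Dis3 are the exonucleases of the nuclear exosome. The question asked of these data was whether the mRNAs of this adaptor machinery change in level when those exonucleases are mutated.

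The 14 libraries, of polyA-selected RNA, form 7 groups of 2. Libraries labelled rrp6Δ (strain JLP1704) and those of the rrp6-cat allele (JLP1708) came from cells kept at 32 °C. The combined mutant rrp6-cat dis3-4 (JLP1863) and the temperature-sensitive mutant dis3-4 (JT449) were sampled after 1 h at 30 °C and, in a group of their own, at the 23 °C at which they were grown. Wild type (CHP1365) was kept at 32 °C. All cells were in mid-log growth in YES, a rich medium. No wild type library came from 23 or 30 °C, and in the strains with dis3-4 genotype and temperature cannot be told apart against wild type. Each genotype is 1 strain, so a strain's own background and its mutation cannot be told apart either, and nothing in the labels says whether replicates were separate cultures. The p-values therefore measure only the spread between these libraries.

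Levels are in FPKM, fragments scaled by transcript length and by library, which allows genes of different length to be set side by side. How libraries were scaled was not given in the sources used here. With read totals not given in the sources used here, absolute depth is unknown. Steps between low values gave wild type replicate 2 an estimated 0.24 times the depth of wild type replicate 1, a rough figure, since it is the commonest ratio among 58 low features and 9 of them lie at it. That library had the fewest features at 1 FPKM or more, 5619 against 5849 to 6017 elsewhere, and 75.2% of the tested features were lower in it than in wild type replicate 1. Among the MTREC genes 7 of 8 were lower in it, pab2 being the exception. The deleted gene was looked at beside the labels: rrp6 itself had 179.2 and 127.9 FPKM in the libraries labelled rrp6Δ, against 95.43 and 43.16 FPKM in wild type. Taken alone this goes against the label. Counted sequence that the deletion left in place and a wrong label cannot be told apart here. Those libraries are named by their label throughout. In bulk RNA, more cells with a transcript and more transcript per cell cannot be told apart.

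Of the 8 genes, red1 was the one whose mRNA was higher in every mutant library than in any wild type library. Its rise passed the test in the libraries labelled rrp6Δ, in rrp6-cat and in rrp6-cat dis3-4 at both temperatures, and was largest in rrp6-cat, at 195.4 ± 24.84 FPKM against 51.72 ± 18.07 FPKM in wild type (SD, n = 2 each). The mRNA of red5 rose in the libraries labelled rrp6Δ. The other 6 genes passed the test in no comparison, and 4 of them (mtl1, rmn1, ars2 and pla1) were among the features that varied least between groups.

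**Figure D1:**
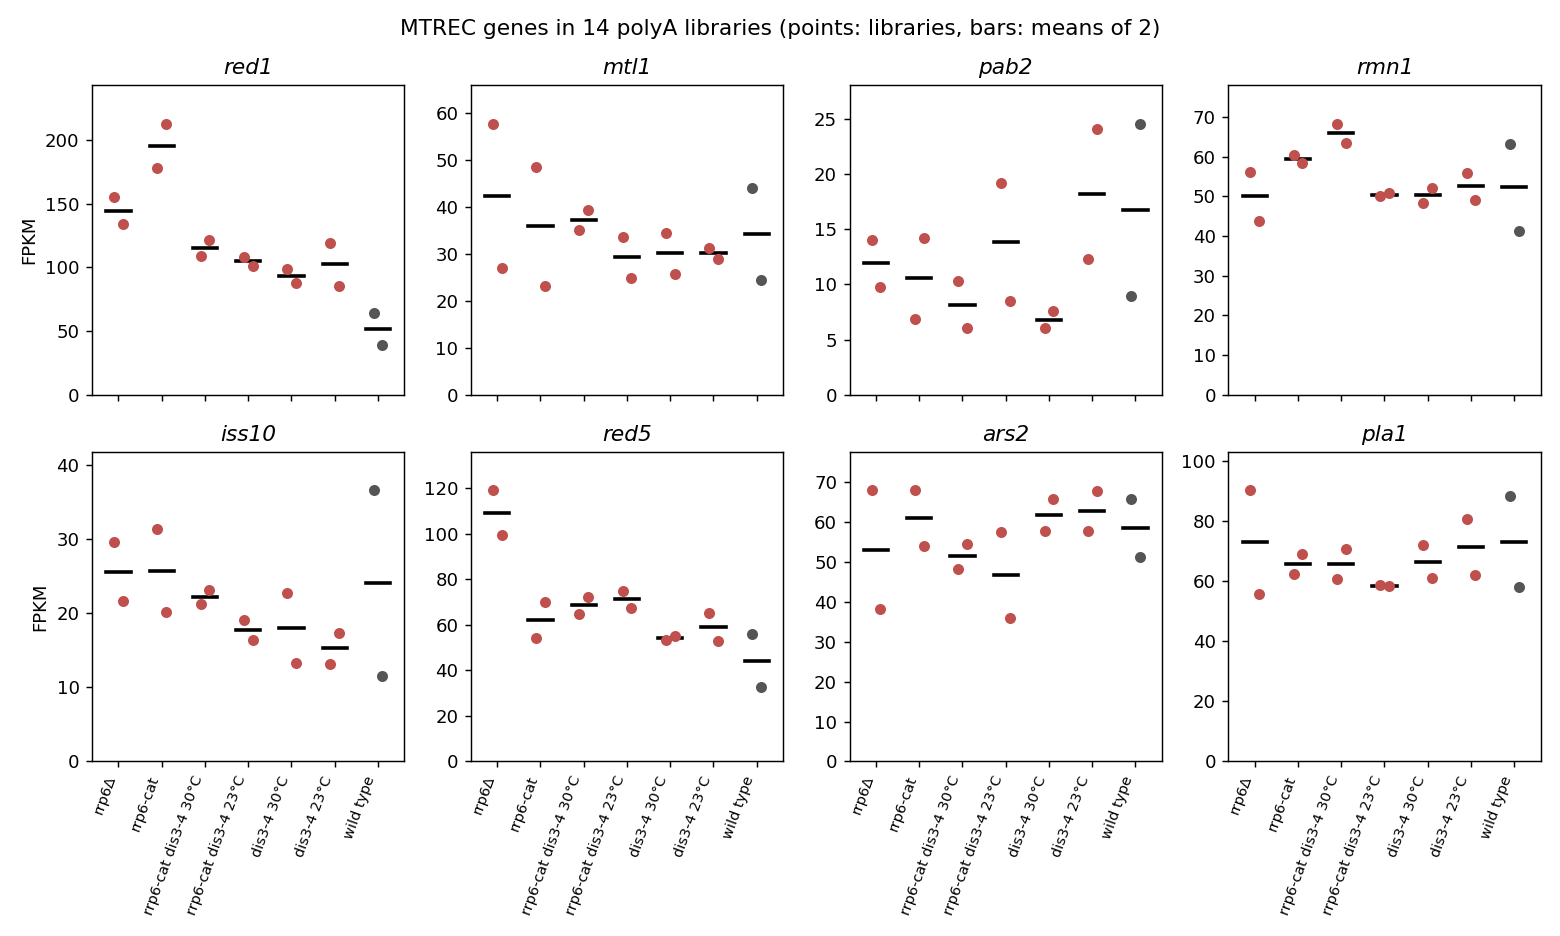
FPKM (y axis, from 0, with its own scale in each panel) of the 8 MTREC genes in each of the 7 groups (x axis); points are libraries and bars the means of 2. In the red1 panel all 12 mutant points, from 85.64 FPKM upwards, lie above both wild type points, 64.5 and 38.94 FPKM.

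The red1 mRNA had 155.3 and 133.7 FPKM in libraries labelled rrp6Δ, and 177.8 and 212.9 FPKM in rrp6-cat. In rrp6-cat dis3-4 it stood at 109.0 and 121.5 FPKM after the shift to 30 °C and at 108.4 and 101.0 FPKM at 23 °C. In dis3-4 it stood at 98.96 and 87.35 FPKM after the shift and at 119.5 and 85.64 FPKM at 23 °C, and in wild type at 64.5 and 38.94 FPKM. By these values the groups stood at 3 levels, with rrp6-cat and the libraries labelled rrp6Δ on top, the 4 groups with dis3-4 between, and wild type below. The groups with dis3-4 also differ from the others in temperature. The steps from rrp6-cat to rrp6-cat dis3-4 and from wild type to dis3-4 did not pass the test. Libraries labelled rrp6Δ were not tested against the groups with dis3-4. Within the 4 groups with dis3-4 the means, 93.16 to 115.2 FPKM, lay within the spread of the dis3-4 23 °C replicates. Having all 12 mutant libraries above both wild type libraries was shared by 7.66% of the tested features and by 3.69% of the 4547 tested protein-coding genes.

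Against wild type, tested with limma on log2(FPKM + 1) over all 6083 features with Benjamini-Hochberg adjustment, red1 rose by a log2 fold change of 1.94 in rrp6-cat (SE 0.26, 95% interval 1.36 to 2.51, adjusted p = 0.00111). It ranked 51st from the top among the 4547 protein-coding genes there. In the libraries labelled rrp6Δ the log2 fold change was 1.50 (95% interval 0.93 to 2.08, adjusted p = 0.0031), the 217th rank. Both of these calls held with any 1 of the 4 compared libraries left out, with log2 fold changes of 1.58 to 2.29 in rrp6-cat and 1.15 to 1.86 in the libraries labelled rrp6Δ. Both were lost, at the same log2 fold changes, when only the 4 compared libraries were fitted (adjusted p = 0.22 in rrp6-cat and 0.183 in the libraries labelled rrp6Δ).

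The rises in the combined mutant were smaller. In rrp6-cat dis3-4 the log2 fold change of red1 was 1.18 after the shift to 30 °C (95% interval 0.60 to 1.76, adjusted p = 0.0123) and 1.05 at 23 °C (95% interval 0.47 to 1.63, adjusted p = 0.0257). Each of these calls was kept in 1 of 4 repeats that left out a library, the one without wild type replicate 1. With wild type replicate 2 left out the values were 0.83 (adjusted p = 0.069) after the shift and 0.69 (adjusted p = 0.124) at 23 °C.

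In dis3-4 the rise of red1 did not pass the test. Its log2 fold change was 0.88 after the shift to 30 °C (95% interval 0.30 to 1.46, adjusted p = 0.0636) and 1.00 at 23 °C (95% interval 0.42 to 1.58, adjusted p = 0.0533). Without wild type replicate 1 both passed, with adjusted p = 0.00687 after the shift and 0.00449 at 23 °C. Without wild type replicate 2 the values were 0.52 and 0.64. That red1 passed in 4 of the 6 comparisons with wild type is shared by 5.13% of the tested features and by 1.8% of the protein-coding genes, and all 6 comparisons share the same 2 wild type libraries.

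**Figure D2:**
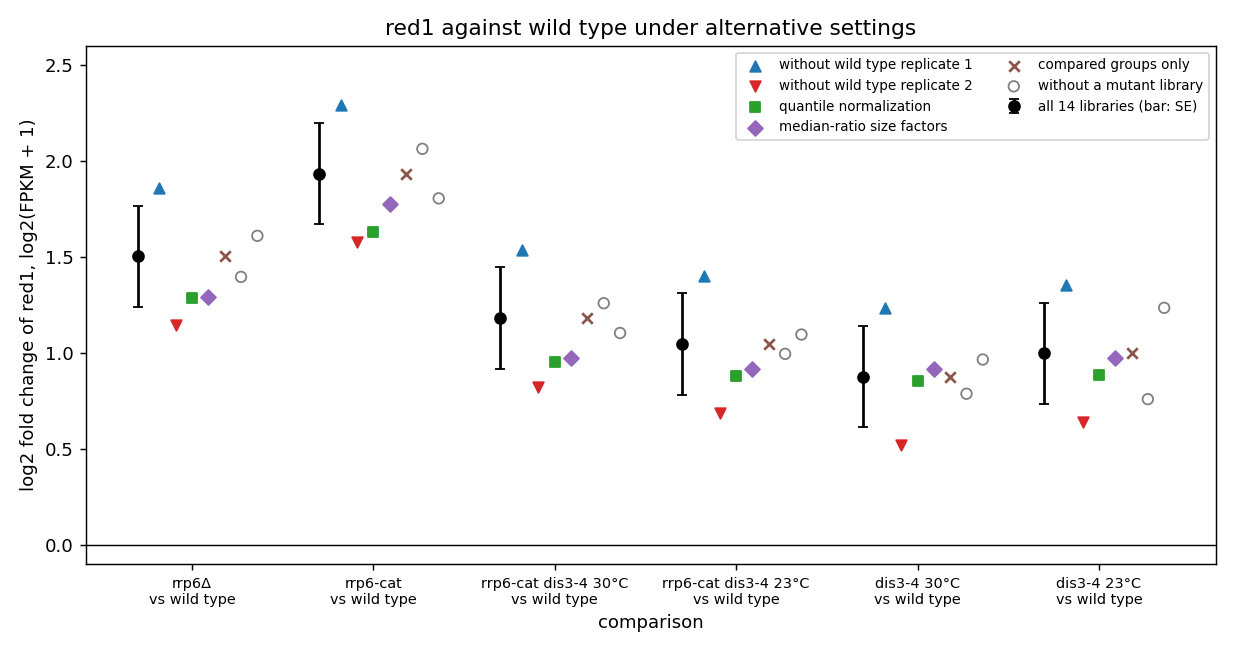
Log2 fold change of red1 on the log2(FPKM + 1) scale (y axis) in the 6 comparisons with wild type (x axis), from all 14 libraries (black, bar: SE) and under alternative settings (other symbols). Every value is above 0; leaving out wild type replicate 1 or 2 gives the highest and lowest value in the rrp6-cat and rrp6Δ comparisons, 2.29 and 1.58, and 1.86 and 1.15.

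Direct comparisons between mutants asked whether the allele, the temperature or the second mutation moved red1. Both libraries labelled rrp6Δ were below both of rrp6-cat, as for 16.7% of tested features, but the log2 difference of -0.43 did not pass the test (95% interval -1.01 to 0.15, adjusted p = 0.59). After the shift to 30 °C the difference from 23 °C was -0.12 in dis3-4 and 0.14 in rrp6-cat dis3-4, each with an adjusted p of 1.0. The 2 shifts differed by 0.26 on the log2 scale (95% interval -0.56 to 1.07, adjusted p = 0.999). After the shift, rrp6-cat dis3-4 stood 0.30 above dis3-4 (95% interval -0.27 to 0.88, adjusted p = 0.623).

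A pair of comparisons added after the values were seen set rrp6-cat dis3-4 against rrp6-cat, whose growth temperatures differ. The log2 difference of red1 was -0.75 after the shift to 30 °C (95% interval -1.33 to -0.17, adjusted p = 0.241) and -0.89 at 23 °C (95% interval -1.47 to -0.31, adjusted p = 0.202). Both libraries of the combined mutant were below both of rrp6-cat at each temperature, as for 21.6% of tested features after the shift and 25.7% at 23 °C. Neither difference passed the test over all features, where 1.12% and 0.542% did.

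The red1 transcript is spliced, with 3 introns, and encodes 712 residues (RefSeq annotation, ASM294v3; chromosome I, minus strand). Mmi1 is known to bind the hexamer TNAAAC, where N is any base and T stands for U in the RNA, and TTAAAC, contained in it, is the form best known from its meiotic targets. Of red1's 10 TNAAAC matches on the sense strand of its spliced transcript, 7 lie in the coding sequence and 3 in the 3′ UTR, and none of them is TTAAAC. At 4.09 per kilobase, red1 had more TNAAAC per length than 95.6% of the 5124 annotated coding transcripts. The median was 1.64 per kilobase, 3.88% of those transcripts held 10 or more, and 49.3% held at least 1 TTAAAC. Members that passed in no comparison had 3.54 (iss10), 3.18 (pab2), 2.06 (mtl1), 1.96 (pla1), 1.00 (ars2) and 0.46 (rmn1) TNAAAC per kilobase. For red5 it was 2.28. The sequences below show 7 of the 10 in red1, chosen so that no printed 30-base windows overlap each other, in order along the transcript, with the hexamer in capitals. Left out are coding 316, whose window overlaps that of 303, and 3′ UTR 2142 and 2160, whose windows overlap only each other. The first base of each hexamer is counted from the A of the start codon.
red1 coding 303: tcctttctttccTCAAACcgcctcctcaaa
red1 coding 390: ggcgaagtcttcTGAAACatcggattcttc
red1 coding 1169: ctgccgccgataTGAAACttccatctgtcc
red1 coding 1212: tgacaacaaatcTAAAACacacttggatac
red1 coding 1485: actaacaaaataTCAAACtttggtgaaatc
red1 coding 1675: tcttccaaaacgTCAAACgcgccaaatggg
red1 3′ UTR 2248: tctttgccgttaTAAAACtaatgtcactac
These matches describe the letters of the transcript only; binding was not measured.

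The asa1 gene, which encodes a subunit of the ASTRA chaperone complex, lies on the other strand and overlaps the end of red1 by 68 bases in the reference. Its FPKM were 43.86 and 49.0 in the libraries labelled rrp6Δ, 88.26 and 64.7 in rrp6-cat, between 27.52 and 45.12 in the 4 groups with dis3-4, and 36.1 and 41.97 in wild type. It passed the test against wild type in none of the 6 comparisons. Its log2 fold change in rrp6-cat was 0.94 (adjusted p = 0.0768), in the group where red1 was highest, with the use of strand in counting not given in the sources used here. What part this overlap has in the red1 values was not tested. The gene before red1 on the same strand, mcp3, was under 5 FPKM in every library. It passed the test in dis3-4 after the shift, at 4.505 and 3.927 FPKM against 0.2324 and 0.0 FPKM in wild type (log2 2.23, adjusted p = 0.0303), and all 12 mutant libraries were above both of wild type. The reference also places antisense RNAs over both called members, SPNCRNA.4288 over 475 bases of red1, and SPNCRNA.4995 and SPNCRNA.4996 over 594 and 971 bases of red5. Uncalled members have them as well: SPNCRNA.4737 over 1676 bases of rmn1, SPNCRNA.2897 over 798 of mtl1 and SPNCRNA.3168 over 622 of iss10. SPNCRNA.5074 lies over 523 bases of ars2 and SPNCRNA.5413 over 370 of pab2. The levels of these antisense RNAs were not analysed here, and their part in the members' values was not tested.

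The next member in size of change was red5, which encodes another zinc-finger protein needed for removal of meiotic mRNAs. Its FPKM were 119.0 and 99.42 in libraries labelled rrp6Δ and 54.04 and 69.80 in rrp6-cat. In rrp6-cat dis3-4 it stood at 64.83 and 72.32 FPKM after the shift and at 74.71 and 67.50 FPKM at 23 °C. In dis3-4 it stood at 53.16 and 55.20 FPKM after the shift and at 65.14 and 52.91 FPKM at 23 °C, and in wild type at 55.71 and 32.53 FPKM. The libraries labelled rrp6Δ were above those of wild type and of rrp6-cat. Those of rrp6-cat dis3-4 were above wild type at both temperatures, and those of dis3-4 and rrp6-cat overlapped wild type. Libraries wholly above wild type were found for 31.8% of tested features in the libraries labelled rrp6Δ, and in rrp6-cat dis3-4 for 35.3% after the shift and 30.9% at 23 °C. The libraries labelled rrp6Δ were wholly above rrp6-cat for 25.9% of tested features.

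Against wild type red5 rose by a log2 fold change of 1.33 in the libraries labelled rrp6Δ (SE 0.27, 95% interval 0.74 to 1.93, adjusted p = 0.00784). Without rrp6Δ replicate 1 the value was 1.20 and the call was lost (adjusted p = 0.0633). In the other 5 comparisons with wild type it ran from 0.34 to 0.72, with adjusted p-values of 0.113 to 0.505. Without wild type replicate 1 the log2 fold change of red5 was 0.90 in rrp6-cat, and in rrp6-cat dis3-4 1.10 at 23 °C and 1.05 after the shift. Those values rest on wild type replicate 2 alone, the lower of the wild type libraries for red5. Wild type replicate 1, at 55.71 FPKM, lay between the rrp6-cat libraries. In the libraries labelled rrp6Δ the values with 1 library left out ran from 0.95 to 1.71. The direct difference of the libraries labelled rrp6Δ from rrp6-cat was 0.81 (95% interval 0.22 to 1.41, adjusted p = 0.212), so red5 is not shown to differ between the 2 rrp6 alleles.

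The red5 transcript has a 5′ UTR of 477 bases, and all 4 of its TNAAAC matches lie there, 1 of them TTAAAC. They are shown because no other member has all its matches before the start codon. Positions are those of the first base of the hexamer, counted back from the start codon's A.
red5 5′ UTR -349: aaaaggtcattgTCAAACatataagctctt
red5 5′ UTR -266: tgggcatttaacTTAAACagttttgtttaa
red5 5′ UTR -170: aaccactcatttTAAAACattgagcaaaca
red5 5′ UTR -120: caagtggtggttTAAAACaggaaatacttg
The remaining members had 1 (rmn1), 2 (ars2), 4 (pab2 and pla1) and 7 (mtl1 and iss10) TNAAAC matches, and TTAAAC occurred 2 times in iss10 and 1 time in each of ars2 and pla1. Annotated transcripts of meiotic mRNAs that Mmi1 is known to bind held more TTAAAC, 5 in mei4 and rec8 and 3 in spo5, for example.

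The helicase gene mtl1 had 57.78 and 27.03 FPKM in libraries labelled rrp6Δ, 48.61 and 23.17 FPKM in rrp6-cat, 24.91 to 39.38 FPKM in the 8 libraries of strains with dis3-4, and 44.09 and 24.34 FPKM in wild type. Replicates of the libraries labelled rrp6Δ, of rrp6-cat and of wild type differed more from each other than these 3 groups did. Against wild type its log2 fold change ran from -0.17 to 0.26, and the outermost bounds of the 6 intervals were -1.12 and 1.21.

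The gene of the bridging protein Iss10 varied with it, with 29.63 and 21.55 FPKM in libraries labelled rrp6Δ, 31.30 and 20.07 FPKM in rrp6-cat, 13.19 to 23.14 FPKM in the strains with dis3-4, and 36.53 and 11.48 FPKM in wild type. Both its lowest and its highest value thus came from wild type. Log2 fold changes ran from -0.43 to 0.28. The levels of mtl1 and iss10 had the highest correlation of the 28 member pairs (Pearson r = 0.787 on log2 values over 14 libraries, a description that also carries differences in depth), ahead of red1 and red5 (0.685).

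The poly(A) genes differed in level. Pla1, the canonical poly(A) polymerase, was encoded by the mRNA with the highest level of the 8 in wild type, 73.19 ± 21.21 FPKM (SD, n = 2). Its group means ran from 58.47 to 72.88 FPKM in the mutants, and its log2 range over the 7 group means, 0.29, was smaller than that of all but 1.00% of the tested features. The pab2 mRNA was the least abundant of the 8 in 6 of the 7 groups, and iss10 was lower still in dis3-4 at 23 °C.

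Pab2's mRNA had 14.06 and 9.762 FPKM in libraries labelled rrp6Δ, 6.892 and 14.20 FPKM in rrp6-cat, and 8.948 and 24.58 FPKM in wild type. In dis3-4 it stood at 6.036 and 7.572 FPKM after the shift and at 12.27 and 24.07 FPKM at 23 °C, with no overlap between the 2 temperatures, as in 17.6% of tested features in that direction. The log2 difference after the shift was -1.23 (95% interval -2.48 to 0.02, adjusted p = 1.0). In rrp6-cat dis3-4 the libraries after the shift, 10.29 and 6.014 FPKM, overlapped those at 23 °C, 19.21 and 8.455 FPKM. An antisense RNA in the table, SPNCRNA.1478, overlaps pab2 by 730 bases, and at 13.01 to 78.42 FPKM it reached levels above those of pab2, so values of pab2 are uncertain where strand was not used in counting.

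The RNA-binding protein gene rmn1 lay between 43.85 and 68.28 FPKM in the 12 mutant libraries, against 63.25 and 41.33 FPKM in wild type. Its highest group was rrp6-cat dis3-4 after the shift, at 65.85 ± 3.437 FPKM, against 52.29 ± 15.5 FPKM in wild type (SD, n = 2 each), a log2 fold change of 0.36 that did not pass the test. The gene ars2, called pir2 in the reference, encodes the partner of the cap-binding complex. It lay between 35.87 and 68.00 FPKM in the mutants, against 65.95 and 51.25 FPKM in wild type, with log2 fold changes of -0.35 to 0.10. For rmn1 the interval bounds reached -0.58 and 0.90, and for ars2 -1.04 and 0.80, so differences up to these bounds remain possible with 2 libraries a group.

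Other features overlap members as well. The isocitrate dehydrogenase gene idh2 shares 348 bases with rmn1 on the other strand, and it fell in rrp6-cat dis3-4, by 0.87 on the log2 scale after the shift (adjusted p = 0.0187) and by 0.73 at 23 °C (adjusted p = 0.0445). Its FPKM were 97.4 and 105.6 after the shift, 118.2 and 104.8 at 23 °C, and 157.7 and 218.9 in wild type, against levels of rmn1 that did not pass the test there. The cid16 gene shares 106 bases with mtl1 on the same strand, and erg9 shares 45 bases with pla1 on the other strand. Just before red5 on its strand, SPBC337.11 passed the test in rrp6-cat dis3-4 after the shift (log2 1.38, adjusted p = 0.0147) and in dis3-4 after it (1.24, adjusted p = 0.0334), 2 groups in which red5 did not. SPNCRNA.1479 shares 19 bases with pab2 on the same strand. It passed in rrp6-cat (log2 1.53, adjusted p = 0.0291) and in dis3-4 after the shift (1.27, adjusted p = 0.0491). SPNCRNA.1477 lies 51 bases from pab2 on the other strand. It passed in the libraries labelled rrp6Δ (1.63, adjusted p = 0.0354) and in dis3-4 after the shift (1.86, adjusted p = 0.0259). Next to red5 on the other strand, gtr1 fell in dis3-4 at 23 °C (-1.43, adjusted p = 0.0222). The part of these neighbours in the members' values was not tested.

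**Figure D3:**
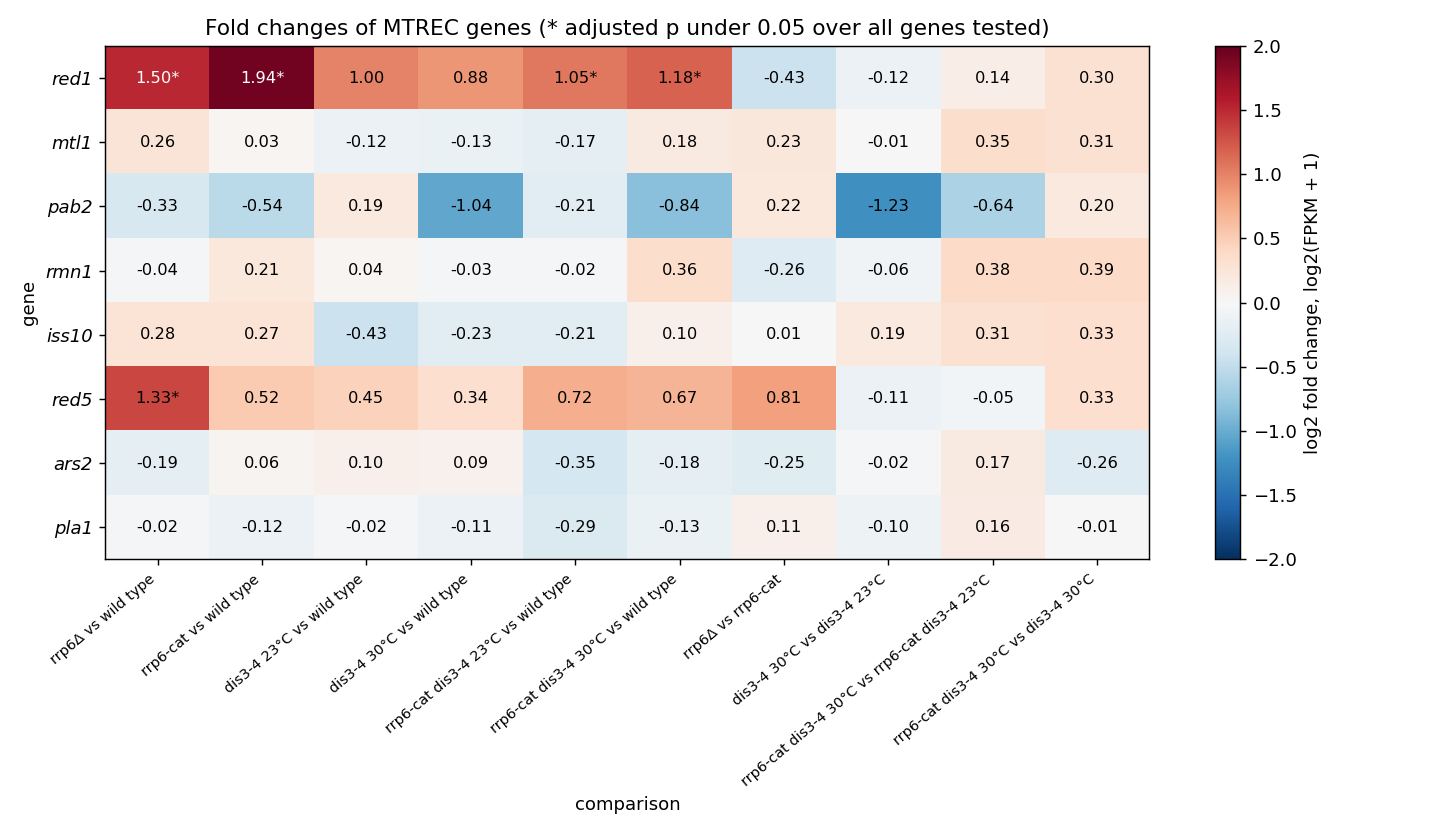
Log2 fold changes on the log2(FPKM + 1) scale (colour and printed value) of the 8 MTREC genes (y axis) in 10 comparisons (x axis); an asterisk marks an adjusted p under 0.05. The asterisks are at red1 in 4 comparisons with wild type and at red5 in 1.

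Taking the genes as a group, 2 of 8 rose in the libraries labelled rrp6Δ, where 9.81% of all tested features and 5.61% of protein-coding genes did. In rrp6-cat 1 of 8 rose, where 4.88% of features and 1.94% of protein-coding genes did. In rrp6-cat dis3-4 it was 1 of 8 after the shift (11.7% of features, 7.46% of protein-coding genes) and 1 of 8 at 23 °C (9.42% and 5.34%). None fell in any of these, where between 0.756% (rrp6-cat) and 2.7% (libraries labelled rrp6Δ) of features did, with 2.22% in rrp6-cat dis3-4 after the shift and 2.38% at 23 °C. In dis3-4 limma called 0 of 8, with 1 at an unadjusted p under 0.05 at each temperature, where 8.58% of features were called after the shift and 5.11% at 23 °C in either direction. With so few genes, these counts are not read as a result about the group. The median log2 fold change of the 8 was 0.12 in the libraries labelled rrp6Δ and 0.14 in rrp6-cat, beside 0.23 and 0.18 over all tested features. It was 0.14 in rrp6-cat dis3-4 after the shift and -0.19 at 23 °C, beside 0.24 and 0.15, and -0.07 in dis3-4 after the shift and 0.07 at 23 °C, beside -0.03 and 0.02.

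Between mutants limma called none of the 8. At an unadjusted p under 0.05 there was 1 (red5) in the libraries labelled rrp6Δ against rrp6-cat, where 1.69% of all features were called. There was 0 between rrp6-cat dis3-4 and dis3-4 after the shift, where 1013 features were at an unadjusted p under 0.05 and 1.84% were called. There was also 0 for either temperature shift and for the difference between the shifts, where 0.0% of features were called and 273 (dis3-4), 96 (rrp6-cat dis3-4) and 163 (difference) were at an unadjusted p under 0.05. For each comparison of rrp6-cat dis3-4 with rrp6-cat there was 1 (red1), where 796 features after the shift and 726 at 23 °C were at that threshold.

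Measured by the log2 range of the 7 group means, red1 (1.94) varied more than 82.4% of the tested features, red5 (1.33) more than 66.7% and pab2 (1.23) more than 62.3%. The other ranges were 0.71 (iss10, 26.1%), 0.45 (ars2, 7.25%), 0.44 (mtl1, 6.10%), 0.40 (rmn1, 4.42%) and 0.29 (pla1, 1.00%), beside a median of 1.03. In the 6 mutant groups red1 was the most abundant of the 8 mRNAs, and in wild type the fourth.

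Partners of the complex were counted the same way. The counts here and in the lists below stand beside the shares of all tested features called higher against wild type. These shares were 9.81% in the libraries labelled rrp6Δ and 4.88% in rrp6-cat. In rrp6-cat dis3-4 they were 11.7% after the shift and 9.42% at 23 °C, and in dis3-4 6.38% and 4.39%. With lists this small, the counts are not read as results about the lists. Of 5 partner genes (mmi1, erh1, cbc1, cbc2 and nrl1, the first 4 of which encode Mmi1, its binding partner and the cap-binding subunits), only mmi1 passed the test against wild type, and it was named after its values were seen. It had 27.63 and 35.39 FPKM in libraries labelled rrp6Δ, 38.47 and 47.07 FPKM in rrp6-cat dis3-4 after the shift and 35.12 and 35.38 FPKM at 23 °C, against 16.25 and 6.667 FPKM in wild type. In the same order the log2 fold changes were 1.49 (adjusted p = 0.0274), 1.92 (adjusted p = 0.00752) and 1.66 (adjusted p = 0.0179). In rrp6-cat the value was 1.16 (adjusted p = 0.122), and in dis3-4 it was 0.85 at 23 °C (adjusted p = 0.283) and 0.69 after the shift (adjusted p = 0.324). The list's median ran from -0.71 to -0.11.

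Of 13 genes of the nuclear exosome and its cofactors, at most 1 passed in any comparison with wild type: rrp6 in the libraries labelled rrp6Δ, and the cofactor mpp6 in rrp6-cat dis3-4 after the shift, at 100.9 ± 0.5621 FPKM against 41.11 ± 5.84 FPKM in wild type (SD, n = 2 each; log2 1.28, adjusted p = 0.0127). Of the 3 TRAMP genes, air1, a zinc-knuckle subunit, rose in dis3-4 at 23 °C and in rrp6-cat dis3-4 at both temperatures. Its FPKM were 49.09 and 51.91 in rrp6-cat dis3-4 after the shift, against 23.7 and 23.52 in wild type (log2 1.07, adjusted p = 0.00777). The TRAMP poly(A) polymerase gene cid14 rose there too, at 65.68 and 83.82 FPKM against 40.92 and 12.36 FPKM in wild type (log2 1.67, adjusted p = 0.0192). The lower wild type value came from replicate 2. These names, too, were chosen after their values were seen.

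Of 14 genes for mRNA cleavage and polyadenylation, the machinery in which Pla1 also works, 12 passed the filter and 1 of them, mpe1, rose. It passed in the libraries labelled rrp6Δ (log2 1.63, adjusted p = 0.0433), in dis3-4 after the shift (1.78, adjusted p = 0.0391) and in rrp6-cat dis3-4 at 23 °C (1.86, adjusted p = 0.026) and after the shift (2.24, adjusted p = 0.00915). Its level was 100.3 and 109.2 FPKM in rrp6-cat dis3-4 after the shift, against 35.12 and 12.92 FPKM in wild type. Without wild type replicate 2 all 4 calls were lost, with log2 fold changes of 0.94 to 1.55. No gene of these 4 lists passed the test as lower in any of the 6 comparisons with wild type.

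Meiotic mRNAs bound by Mmi1, the RNAs that MTREC hands on, were counted beside the members. All 6 that passed the filter, of 7 listed, were called higher in the libraries labelled rrp6Δ, where 9.81% of all tested features were. The list median there was 5.86. In rrp6-cat 4 of the 6 were called, where 4.88% of all tested features were called higher, and the list median was 2.33. The transcription factor gene mei4 had 217.9 and 209.0 FPKM in libraries labelled rrp6Δ, 24.49 and 34.09 FPKM in rrp6-cat and 6.18 and 1.804 FPKM in wild type. Set beside these, red1 had the other order, its mean being higher in rrp6-cat than in the libraries labelled rrp6Δ, though its own difference did not pass the test. Each of these 6 mRNAs also averaged over 1 FPKM in wild type alone (lowest 2.473 FPKM, spo5). The list was chosen with earlier results of these data known, so its counts are a description.

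**Figure D4:**
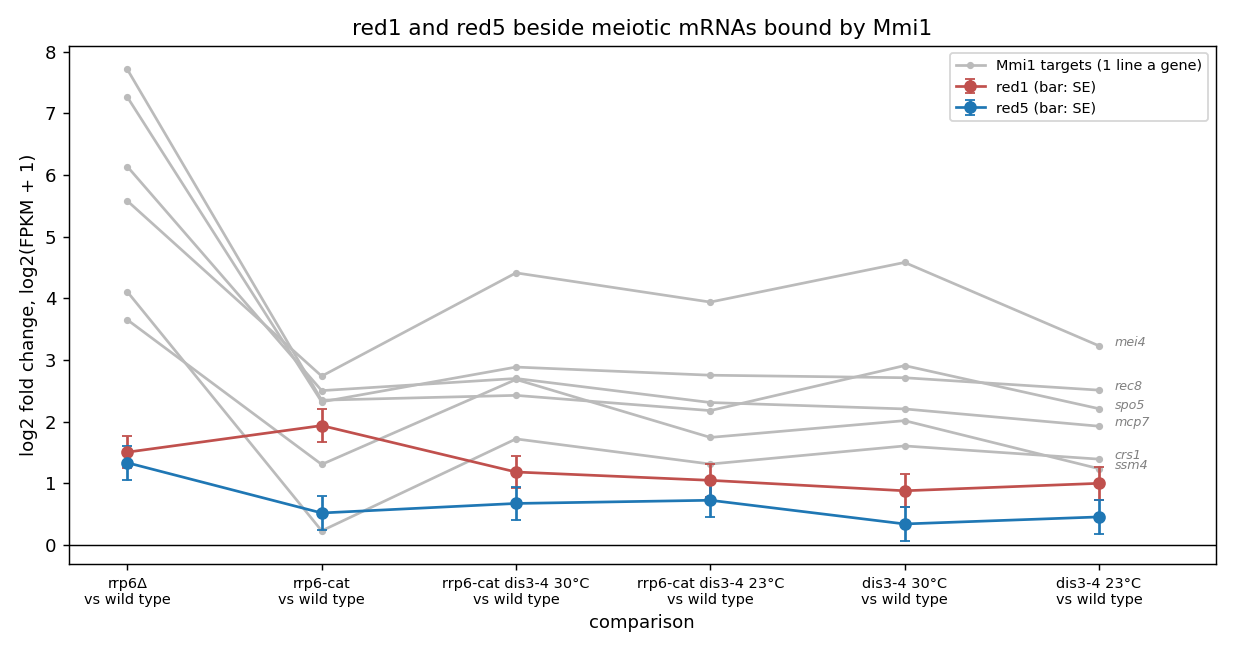
Log2 fold changes on the log2(FPKM + 1) scale (y axis) of red1 and red5 (coloured, bars: SE) and of 6 Mmi1 targets (grey, 1 line a gene) in the 6 comparisons with wild type (x axis). In the rrp6Δ comparison the targets reach 7.71 (spo5), where red1 is at 1.50 and red5 at 1.33; in rrp6-cat red1, at 1.94, lies among them.

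The features whose levels followed red1 most closely over the 14 libraries were SPAC2E12.05.1 (Pearson r = 0.933 on log2 values), SPAC22E12.18 (0.899), dph3 (0.887), SPNCRNA.257 (0.885) and snR46 (0.883). Over the 7 group means they were SPAC2E12.05.1 (0.998), gcn5 (0.988), SPRRNA.15 (0.963), SPNCRNA.1045 (0.957) and trm10 (0.955). The mean level of gcn5, a histone acetyltransferase gene, was 37.39 FPKM in the libraries labelled rrp6Δ, 49.55 FPKM in rrp6-cat and 20.47 FPKM in wild type. These correlations share the same libraries and their depth, and were picked as the highest of all tested features, so they are descriptions only.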

How the data were processed

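The authors deposited FPKM values per feature and library. Per the submitters' processing notes these come from Cuffnorm, and the notes also name TopHat2 2.1.0, Bowtie2, Cufflinks 2.2.1, Cuffdiff and genome build ASM294v2. Annotation, library scaling and use of strand were not given in the sources used here. Left unused were a Cuffdiff table with replicates combined and 3 libraries of 3′-ligated RNA. A row without a name (1) was dropped, and 6839 features matched the RefSeq reference by systematic ID. That reference is ASM294v3, so no genome coordinates are given, and names, gene structure, overlaps and sequences come from it.

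The deposited FPKM were transformed to log2(FPKM + 1), which understates changes of low genes. Features averaging at least 1 FPKM across libraries (6083) entered 1 limma 3.58.1 fit (R 4.3.3) of 7 group means with an intensity trend. Two-sided p-values were adjusted by Benjamini-Hochberg over all 6083, and a gene is said to rise, fall or pass the test at an adjusted p under 0.05. The spread is shared over groups, which varied unequally between replicates (mean square of log2 values 0.663 in wild type and 0.166 to 0.334 elsewhere), so p-values against wild type can be too small. The procedure was tested on simulated data with the same spread in every group and with planted changes larger than those of the members. That test cannot show how the unequal spread affects the p-values against wild type. Numbered replicates are not tied to a shared batch in the labels.

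The 8 genes and the 5 gene lists were chosen with earlier results of these data known. Named genes are the 8 members, the 5 features most like red1 by each measure, neighbours and overlapping features of members, and list genes called in at least 4 of the 6 comparisons with wild type; others are marked as chosen after their values were seen. Alternatives were a pseudocount of 0.1, no filter, quantile normalization, median-ratio size factors, no intensity trend, only the compared groups, a replicate block, and leaving out each compared library. A lone library left in a group is assumed to vary like the other groups.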

Additional observations from a re-analysis of the deposited data

How the results depend on the processing

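The direction of red1 against wild type was the same in all 6 comparisons under every alternative run. Of 605 alternatives computed for single genes, 486 kept their direction and side of the threshold, 97 lost a call, 18 gained one and 4 turned round, all of the last in values that were not called. These were asa1 in the libraries labelled rrp6Δ under quantile normalization (-0.067), asa1 in dis3-4 at 23 °C without wild type replicate 2 (0.013, with -0.20 as the lowest value with a library left out) and after the shift without its replicate 1 (0.21, lowest -0.49), and the shift of red1 in dis3-4 without the 23 °C replicate 1 (0.12, lowest -0.36).

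Fitting only the compared groups, with 2 residual degrees of freedom, left 0 members called in the libraries labelled rrp6Δ, in rrp6-cat and in rrp6-cat dis3-4 at both temperatures. The genes called then numbered 73 (761 in the fit of all libraries) in the libraries labelled rrp6Δ, 0 (343) in rrp6-cat, 71 (847) and 62 (718) in rrp6-cat dis3-4 after the shift and at 23 °C, and 26 (522) and 4 (311) in dis3-4. They numbered 15 (103) in the libraries labelled rrp6Δ against rrp6-cat, 15 (112) between rrp6-cat dis3-4 and dis3-4 after the shift, and 7 (68) and 0 (33) between rrp6-cat dis3-4, after the shift and at 23 °C, and rrp6-cat. In dis3-4, red1 passed the test at both temperatures (1 member each) under quantile normalization, under size factors and with the replicate block.

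Quantile normalization gave 199 genes in the libraries labelled rrp6Δ against rrp6-cat, and 169 and 79 for rrp6-cat dis3-4, after the shift and at 23 °C, against rrp6-cat. For the last 2, size factors gave 124 and 64 and the replicate block 103 and 55. Size factors gave 4 for the shift of dis3-4. Without the filter 1 gene was called for the shift of dis3-4, 2 for that of rrp6-cat dis3-4 and 3 for the difference of the shifts, and without the trend 1, for the shift of rrp6-cat dis3-4, 12 for rrp6-cat dis3-4 at 23 °C against rrp6-cat and 1 for the difference.

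With 1 library left out, genes called ranged from 333 to 1618 in the libraries labelled rrp6Δ, 109 to 1253 in rrp6-cat, 283 to 1608 and 214 to 1456 in rrp6-cat dis3-4 after the shift and at 23 °C, and 198 to 1020 and 114 to 904 in dis3-4. The ranges were 23 to 58 in the libraries labelled rrp6Δ against rrp6-cat, 9 to 103 between rrp6-cat dis3-4 and dis3-4 after the shift, 0 to 46 and 0 to 14 between rrp6-cat dis3-4 and rrp6-cat, and 0 to 1 for the shift of dis3-4. The highest counts against wild type came without wild type replicate 1. Members called ranged from 1 to 2 in the libraries labelled rrp6Δ and in rrp6-cat, 0 to 2 in rrp6-cat dis3-4 at each temperature and 0 to 1 in dis3-4 at each.

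The share of calls that were higher fell by more than 10 percentage points under quantile normalization, to 49.6% (78.4% as deposited) in the libraries labelled rrp6Δ, 67.9% (86.6%) in rrp6-cat, 52.8% (84.1%) and 54.2% (79.8%) in rrp6-cat dis3-4 after the shift and at 23 °C, and 59.9% (74.3%) and 69.7% (85.9%) in dis3-4 after the shift and at 23 °C. Under size factors it was 62.9% in the libraries labelled rrp6Δ and 65.4% and 66.2% in rrp6-cat dis3-4 after the shift and at 23 °C. Between mutants the share fell too. In the libraries labelled rrp6Δ against rrp6-cat it was 56.3% under quantile normalization and 58.2% under size factors (76.7% as deposited). Between rrp6-cat dis3-4 and dis3-4 after the shift it was 67.9% and 69.7% (82.1%). For rrp6-cat dis3-4 against rrp6-cat it was 58.0% and 53.2% (66.2%) after the shift and 55.7% and 53.1% (66.7%) at 23 °C. Quantile normalization moved the median of all features in the libraries labelled rrp6Δ from 0.23 to -0.14. There red1 kept a log2 fold change of 1.29, and in rrp6-cat of 1.63. Deviations of same-numbered replicates had r from -0.154 to 0.315 over 21 group pairs, 5 above 0.1, so some pairs deviated together weakly. Depth is known only as a rough ratio between the wild type libraries.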
